A study of Mus musculus with 2 samples.

Results

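Imprinted genes that act on growth were followed across the cell types of the newborn mouse ovary. The 10 members, H19, Igf2, Dlk1, Meg3, Peg3, Peg10, Mest, Plagl1, Grb10 and Nnat, were chosen by symbol among the 31057 genes of the deposited matrices, and all 10 were found. The study profiled ovaries from CD1 mouse pups, taken whole on postnatal day 2, when the store of primordial follicles has formed, by droplet single-cell RNA sequencing. Both biological replicates are untreated and belong to a single group. Each is a pool of 6 ovaries from 3 pups of a single female, so that p-values measure the spread between pools. Cells were gated on unique molecular identifiers (UMIs, each standing for a captured RNA molecule) of marker genes: germ cells on Ddx4, Dazl and Ooep, granulosa cells on Foxl2, Fst and Wnt6, interstitial cells on Col1a2 and Dcn, mesothelial cells on Upk3b, endothelial cells on Cdh5 and immune cells on Ptprc.

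Imprinted genes are transcribed mainly from a single parental allele, because a mark set in the egg or the sperm makes the parental copies differ. Many paternally expressed members promote fetal growth and many maternally expressed members restrain it, and as a group they are most active before and shortly after birth. The marks are erased in early germ cells and set anew in the female as oocytes grow, so that oocytes of this age carry few of them. UMI counts do not tell the parental alleles apart, and no allele was measured here.

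The matrices held 54471790 UMIs in 4094 cells of replicate 1 and 59074480 UMIs in 4847 cells of replicate 2. After filtering, 3095 and 3431 cells passed exactly 1 gate: 207 and 438 germ cells, 1368 and 385 granulosa cells, 1368 and 2422 interstitial cells, 76 and 128 mesothelial cells, 60 and 26 endothelial cells and 16 and 32 immune cells. Gated germ cells were by far the deepest, with a median of 79260 and 54931.5 UMIs against 5046.5 to 13607.0 in the other types. Their gate asked for 10 UMIs of its genes, so shallow germ cells could be missed. The summed level of 5 further markers per type was higher in their own gate than in any other, by at least 7.25 times in each library for 5 of the 6 lists. The exception was the granulosa list (Amh, Fshr, Hsd17b1, Irx3, Kitl), whose sum was 379 to 417 UMIs per 1000000 UMIs of the cells in granulosa cells and 318 to 359 in mesothelial cells. Fshr was at 0 UMIs in every gate but granulosa, and Amh was at 0 in mesothelial cells of replicate 1. Irx3 did not set these types apart. Per cell, mesothelial cells held 168 and 71.5% of the Irx3 UMIs of granulosa cells in replicates 1 and 2. Only 21 barcodes were shared by both libraries.

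The promoter windows of 4 members are shown because their transcripts differed in pattern: the neighbours Dlk1 and Meg3, Peg3, which came next to Dlk1 over the estimate of carried-over RNA in germ cells, and Nnat, which was higher in dividing interstitial cells. Each runs from 250 bases before to 50 bases after the RefSeq transcription start (build GRCm38.p6), 5′ to 3′ on the gene's strand. Capitals mark TGCCGC or its reverse complement GCGGCA, the hexamer that the zinc-finger protein ZFP57 binds when it is methylated.
Dlk1, chr12:109452573-109452872, plus strand: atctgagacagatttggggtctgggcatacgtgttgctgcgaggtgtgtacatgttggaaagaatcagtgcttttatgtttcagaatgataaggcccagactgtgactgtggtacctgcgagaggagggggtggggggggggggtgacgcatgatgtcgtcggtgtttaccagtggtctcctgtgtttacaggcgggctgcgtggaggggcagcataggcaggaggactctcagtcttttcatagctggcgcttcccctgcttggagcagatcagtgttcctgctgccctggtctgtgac
Meg3, chr12:109540746-109541045, plus strand: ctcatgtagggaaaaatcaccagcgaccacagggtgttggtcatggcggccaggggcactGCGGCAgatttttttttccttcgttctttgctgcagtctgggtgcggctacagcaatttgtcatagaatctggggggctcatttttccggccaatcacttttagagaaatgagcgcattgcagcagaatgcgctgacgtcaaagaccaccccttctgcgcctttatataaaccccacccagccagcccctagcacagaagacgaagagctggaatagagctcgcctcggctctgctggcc
Peg3, chr7:6730370-6730669, minus strand: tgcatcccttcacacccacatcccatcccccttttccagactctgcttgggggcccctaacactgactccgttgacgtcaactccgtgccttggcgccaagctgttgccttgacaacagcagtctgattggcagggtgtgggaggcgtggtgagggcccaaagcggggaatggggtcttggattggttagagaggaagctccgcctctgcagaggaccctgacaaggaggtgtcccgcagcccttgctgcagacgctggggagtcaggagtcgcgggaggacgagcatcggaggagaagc
Nnat, chr2:157559828-157560127, plus strand: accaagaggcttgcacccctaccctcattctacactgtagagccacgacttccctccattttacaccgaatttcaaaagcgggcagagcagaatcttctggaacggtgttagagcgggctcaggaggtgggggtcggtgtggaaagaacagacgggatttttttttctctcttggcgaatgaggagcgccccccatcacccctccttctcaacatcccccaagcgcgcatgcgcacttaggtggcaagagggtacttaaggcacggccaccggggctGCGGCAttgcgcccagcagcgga
RefSeq windows were matched for 8 of the 10 members, 15 windows in all. The hexamer stood in 7 of the 15 windows, in 6 of the 8 genes, against 11.6% of all 32851 windows and 21.0% of windows with 8 or more CpG dinucleotides. The 7 include a pair of Mest windows that overlap almost wholly. The members' windows held 1 to 45 CpG, against a median of 7 over all windows. Of the windows shown, Meg3 and Nnat held 1 hexamer each, and Dlk1 and Peg3 held none. A match of letters is a description, and neither binding nor methylation was measured.

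The plot of all members by cell type gives the level in each library as UMIs per 1000000 UMIs summed per gate (CPM), scaled by the trimmed mean of M values (TMM). Values called raw CPM are without that scaling. Somatic cells held nearly all of these transcripts, and each somatic type except the immune cells had its own combination. Levels are compared between cell types for the same gene, not between genes.

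**Figure D1:**
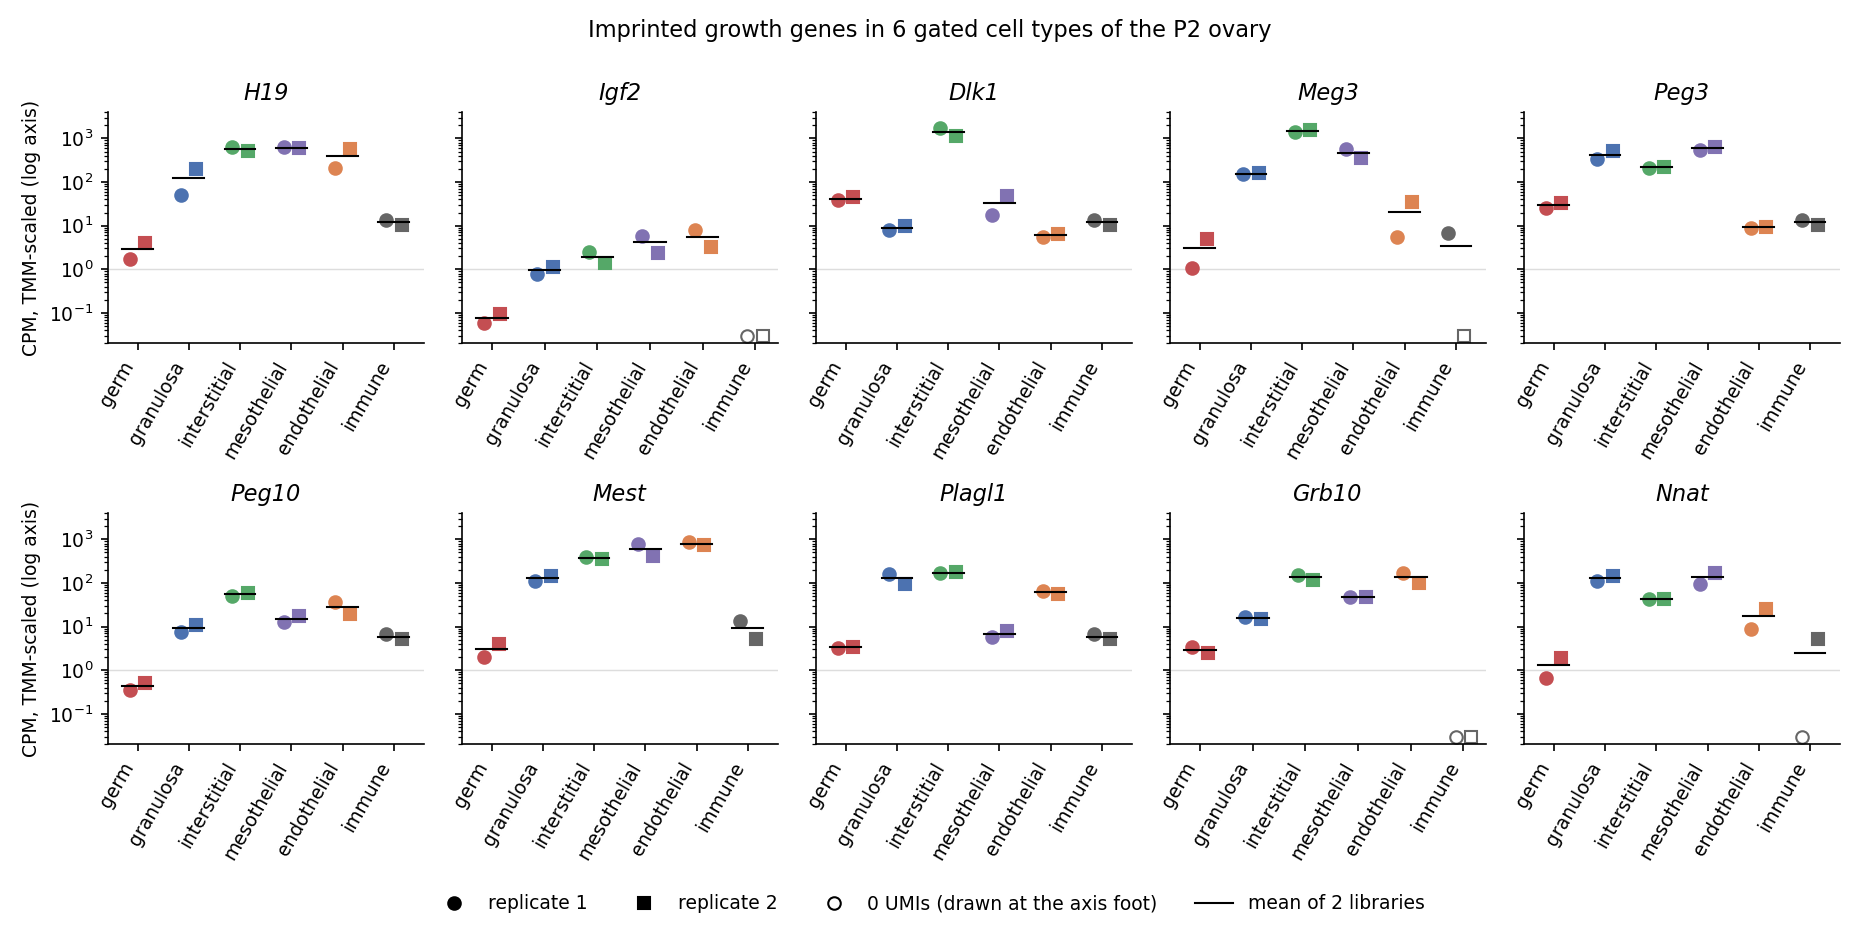
Levels of the 10 members, as TMM-scaled CPM on a log axis, in the 6 gated cell types (one panel a gene). Circles and squares are the 2 libraries, bars their mean, and open symbols 0 UMIs. Germ cells lie below interstitial cells in every panel, Dlk1 stands highest in interstitial cells by a wide margin, and no immune value rests on more than 2 UMIs.

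H19 (ENSMUSG00000000031, chr7:142575529-142578143 on GRCm38, minus strand) makes a long noncoding RNA from the maternal allele. Its level was 642 and 587 CPM in mesothelial cells of replicates 1 and 2, 649 and 504 CPM in interstitial cells, 211 and 586 CPM in endothelial cells, 49.8 and 200.01 CPM in granulosa cells and 1.73 and 4.05 CPM in germ cells. The ranges of mesothelial, interstitial and endothelial cells overlapped, and granulosa cells lay below all 3. In replicate 2 a single endothelial cell held 84 of the 184 endothelial H19 UMIs, so the overlap of endothelial cells leans on that cell. The granulosa value was 4 times higher in replicate 2, where 38.4% of granulosa cells held a UMI against 15.8% in replicate 1. The endothelial value was also higher in replicate 2, whose 26 endothelial cells carried 336 raw CPM of perivascular markers (Rgs5, Cspg4, Notch3, Kcnj8) against 33.4 in replicate 1, with all 4 markers detected. Granulosa cells of replicate 2 also carried more of the erythroid markers Hba-a1, Hba-a2, Hbb-bs, Hbb-bt and Alas2 (147 and 1159 raw CPM in replicates 1 and 2). So did interstitial cells (30.7 and 1035 raw CPM), whose H19 level was 649 and 504 CPM. The part of perivascular and erythroid cells in the H19 levels, and in the higher endothelial Meg3 of replicate 2, was not tested.

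Meg3 (ENSMUSG00000021268, chr12:109541001-109571726, plus strand), the other maternally expressed noncoding RNA, was the most interstitial of the RNA genes. It stood at 1407 and 1574 CPM in interstitial cells, 571 and 349 CPM in mesothelial cells, 150.1 and 160.3 CPM in granulosa cells, 5.59 and 35.0 CPM in endothelial cells and 1.07 and 5.05 CPM in germ cells. The first 3 types did not overlap, whereas endothelial and immune values did. In replicate 2 a single endothelial cell held 10 of the 11 endothelial Meg3 UMIs. When each cell was thinned to 2000 UMIs, 82.2% and 82.6% of interstitial cells still held a Meg3 UMI, against 19.01% and 23.9% of granulosa cells and 0.483% and 1.16% of germ cells.

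Dlk1 (ENSMUSG00000040856, chr12:109452823-109463336, plus strand), a membrane protein related to Notch ligands that holds back differentiation of mesenchymal progenitors, lies 77.7 kb from Meg3 and is expressed from the paternal allele. Interstitial cells held it at 1703 and 1111 CPM, far above germ cells at 37.9 and 45.5 CPM and mesothelial cells at 17.5 and 48.3 CPM, and the germ and mesothelial ranges overlapped. Granulosa cells were at 8.02 and 9.71 CPM, endothelial cells at 5.59 and 6.37 CPM and immune cells at 13.5 and 10.2 CPM. A UMI of Dlk1 was found in 93.9% and 79.4% of interstitial cells and 10.01% and 13.8% of granulosa cells.

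**Figure D2:**
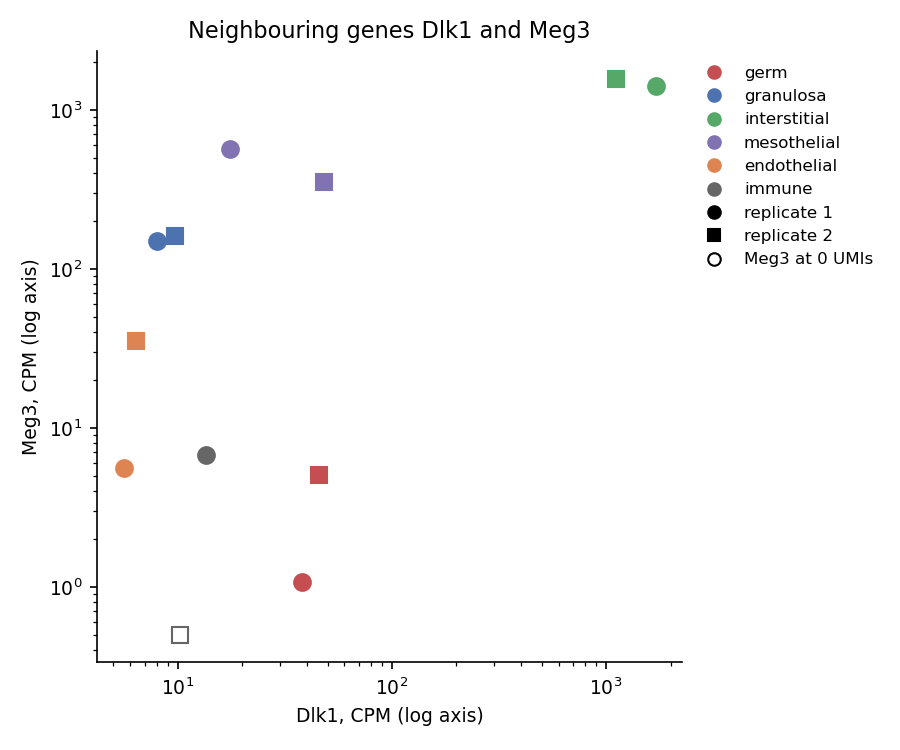
Dlk1 (horizontal, CPM, log axis) against Meg3 (vertical, CPM, log axis) in each gated type, circles for replicate 1 and squares for replicate 2, with the open square for 0 Meg3 UMIs. Both genes are highest in interstitial cells, granulosa and mesothelial cells keep Meg3 with little Dlk1, and germ cells keep Dlk1 with little Meg3.

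The neighbours Dlk1 and Meg3 differed in pattern between germ, granulosa and interstitial cells. Interstitial cells counted 0.826 and 1.42 Meg3 UMIs per Dlk1 UMI in replicates 1 and 2. Granulosa cells counted 18.7 and 16.5, mesothelial cells 32.7 and 7.23, and germ cells 0.0283 and 0.111. The germ, interstitial and granulosa ratios did not overlap between types. Germ Meg3 was 0.273 and 0.674 times, and granulosa Dlk1 0.823 and 1.10 times, the RNA estimated below as carried over from other cells. These 2 counts could not be told apart from such RNA, so the germ and granulosa ratios are uncertain in size. Endothelial cells counted 1.0 and 5.5, from 2 to 11 UMIs of either gene, with replicate 1 inside the interstitial range, and immune cells held at most 2 UMIs of either.

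Igf2 (ENSMUSG00000048583, chr7:142650766-142666816, minus strand), the insulin-like growth factor made from the paternal allele 72.6 kb from H19, could not be read as a level. The files also list Gm49394 on the same strand (142650769 to 142669942), whose annotated exons cover 62.8% of the exonic bases of Igf2, and Cell Ranger does not count a read that fits 2 genes. Gm49394 held 0 UMIs and Igf2 held 133 in all cells of both libraries. The values that were counted were 7.83 and 3.18 CPM in endothelial, 5.82 and 2.42 CPM in mesothelial, 2.43 and 1.38 CPM in interstitial and 0.774 and 1.15 CPM in granulosa cells. No other member shared exonic bases with a same-strand gene in the files.

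The zinc-finger transcription factors differed from each other. Peg3 (ENSMUSG00000002265, chr7:6703892-6730431, minus strand), paternally expressed, was highest in mesothelial cells at 545 and 647 CPM, followed by granulosa cells at 333 and 501 CPM and interstitial cells at 212 and 221 CPM, with no overlap between these types. Germ cells were at 26.1 and 32.5 CPM and endothelial cells at 8.95 and 9.55 CPM. Peg3 was the member found in the largest share of granulosa cells (87.7% and 93.8%).

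Plagl1 (ENSMUSG00000019817, chr10:13060504-13131694, plus strand), a paternally expressed factor that can act on other imprinted genes, was at 170.2 and 176 CPM in interstitial cells and 163 and 94.3 CPM in granulosa cells. The types did not overlap and were close to each other in replicate 1 only. Endothelial cells held 66.0 and 57.3 CPM. Mesothelial cells, which shared most members with interstitial cells, held only 5.82 and 8.05 CPM, from 5 and 10 UMIs, and germ cells 3.22 and 3.48 CPM.

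Grb10 (ENSMUSG00000020176, chr11:11930508-12038683, minus strand), an adaptor that damps insulin and IGF receptor signalling, is maternally expressed in most tissues. It was at 173 and 98.7 CPM in endothelial cells and 152 and 119 CPM in interstitial cells, whose ranges overlapped, and at 46.6 and 48.3 CPM in mesothelial and 16.8 and 14.8 CPM in granulosa cells, above germ cells at 3.34 and 2.48 CPM. Immune cells held 0 Grb10 UMIs among 350255 in 48 cells, which allows up to 8.57 raw CPM.

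Mest (ENSMUSG00000051855, chr6:30723547-30748465, plus strand), a paternally expressed protein of the alpha/beta hydrolase fold, was at 858 and 729 CPM in endothelial cells, 786 and 426 CPM in mesothelial cells, 387 and 347 CPM in interstitial cells and 113 and 141 CPM in granulosa cells. Germ cells held 2.03 and 4.10 CPM. Endothelial and mesothelial cells overlapped, and the others did not. Its last exons overlap those of Copg2 on the other strand (23.1% of its exonic bases). Peg10 (ENSMUSG00000092035, chr6:4747306-4760517, plus strand), a gene derived from a retrotransposon and needed in the placenta, was at 51.6 and 57.7 CPM in interstitial and 35.8 and 19.1 CPM in endothelial cells, 12.8 and 17.7 CPM in mesothelial, 7.58 and 10.7 CPM in granulosa and 0.358 and 0.524 CPM in germ cells, with no overlap between these types. Endothelial cells held 32 and 6 Peg10 UMIs and mesothelial cells 11 and 22, so the order of these types is uncertain.

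Nnat (ENSMUSG00000067786, chr2:157560078-157562522, plus strand), a small membrane protein encoded within an intron of Blcap on the other strand, was at 95.5 and 172 CPM in mesothelial cells and 114 and 144 CPM in granulosa cells, which overlapped, and at 42.1 and 43.4 CPM in interstitial, 8.95 and 25.5 CPM in endothelial and 0.656 and 1.95 CPM in germ cells. Granulosa cells thus matched mesothelial cells for Nnat and fell between mesothelial and interstitial cells for Peg3, but were below both for H19, Meg3 and Mest.

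Germ cells held little of most members, and RNA that reached their droplets from other cells (carried-over RNA) was estimated beside it. The UMIs per cell of each somatic type's further markers were therefore divided by those in the type itself, and the median of these ratios was multiplied by the member's UMIs per cell in that type and summed over the 5 other types. Germ cells held 1.95 and 2.88% of the interstitial markers of a single interstitial cell in replicates 1 and 2, and 2.53 and 1.85% of the granulosa markers.

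Dlk1 was the only member that also exceeded the estimate from the highest marker ratio of each list in both libraries. Germ cells counted 3.07 and 2.18 Dlk1 UMIs per cell where 0.246 and 0.208 were estimated as carried over, which is 12.51 and 10.5 times the estimate. With the highest marker ratio of each list in place of the median the estimate was 0.569 and 0.477, and the counted level was still 5.40 and 4.58 times higher. The share of germ cells with a Dlk1 UMI was 86.5% in replicate 1 (179 of 207 cells, 95% exact Clopper-Pearson interval 81.0 to 90.8%) and 64.8% in replicate 2 (284 of 438 cells, 95% exact Clopper-Pearson interval 60.2 to 69.3%). At 2000 UMIs per cell the shares were 9.18% and 7.42% in germ cells, far below the 81.7% and 62.7% in interstitial cells. They were 5.26% and 9.38% in mesothelial cells, 1.39% and 1.30% in granulosa cells and 1.67% and 0% in endothelial cells. The germ and mesothelial shares overlapped. Mesothelial Dlk1 was 1.92 and 3.36 times the median estimate for those cells, but below their estimate from the highest marker ratio. Both germ shares lay above those of granulosa and endothelial cells, in which Dlk1 did not clearly exceed the carried-over estimate (0.823 and 1.10 times it in granulosa and 0.518 and 0.262 times in endothelial cells).

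The Dlk1 level was 35.8 and 38.7 raw CPM in the 76 and 154 germ cells with no UMI of the granulosa or interstitial gate genes. It was 42.5 and 46.9 in the 131 and 284 germ cells with such a UMI. The cells without one were shallower (median 72489.5 against 81734 UMIs in replicate 1 and 34087 against 61369.5 in replicate 2). Their estimate of carried-over Dlk1 was 0.253 and 0.144 UMIs per cell, against 0.246 and 0.208 in all germ cells. The split therefore did not yield germ cells free of carried-over RNA, and the source of their Dlk1 was not tested by it. In the germ cells without a gate UMI Dlk1 stood at 9.48 and 9.50 times their own estimate. Set against granulosa cells alone, a comparison added after the data were seen, Dlk1 was the only member higher in germ cells (log2 fold change 2.26 ± 0.28 (SE), edgeR adjusted p = 1.44e-06), where 27.7% of all genes tested were higher. Granulosa Dlk1 was low in these data (8.02 and 9.71 CPM), so this fold restates the levels. Against the mean of the other types Dlk1 did not pass (0.43). The other 9 members were lower in germ than in granulosa cells, against 31.2% of genes.

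Peg3 was the next in germ cells. It was counted at 2.11 and 1.55 UMIs per germ cell, 10.1 and 6.62 times the median estimate. This was below the estimate from the highest marker ratio (3.38 and 1.91 UMIs), which rests mostly on single mesothelial markers. Germ cells held 46.4% of mesothelial Lrrn4 in replicate 1 and 22.5% of Upk1b in replicate 2. The medians over the mesothelial list were 1.08 and 0.767%. The Peg3 level was 28.3 and 26.4 raw CPM in germ cells with no granulosa or interstitial gate UMI and 27.4 and 33.9 in the others, a split with the same limit as for Dlk1. Grb10 was at 7.36 and 3.64 times the median estimate and Plagl1 at 3.22 and 2.70 times, both below the estimate from the highest ratio. In mesothelial cells the few Plagl1 UMIs were 1.18 and 0.804 times the median estimate for those cells.

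H19, Meg3, Mest and Nnat in germ cells did not clear the estimate in both libraries. H19 was counted at 0.731 and 0.917 times the carried-over amount, Meg3 at 0.273 and 0.674 times, Mest at 0.790 and 1.24 times and Nnat at 0.951 and 1.47 times. H19 and Meg3 were under the estimate in both libraries, and none of the 4 could be told apart from carried-over RNA in germ cells by these counts. Peg10 rested on 6 and 11 UMIs and Igf2 on 1 and 2.

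**Figure D3:**
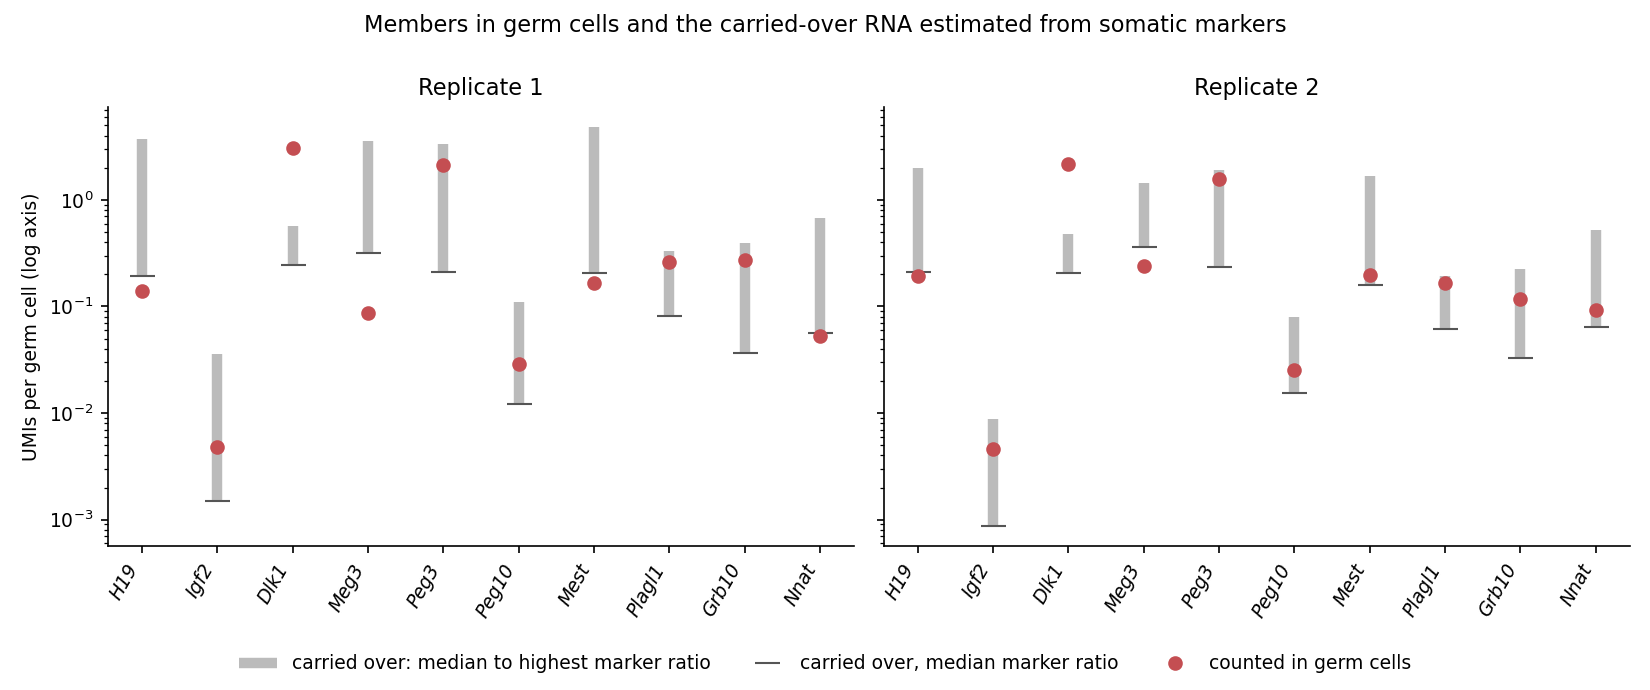
UMIs per germ cell (log axis) counted for each member (red points) and estimated as carried over from the other gated types (tick, median marker ratio; grey bar, up to the highest ratio), one panel a library. Dlk1 alone lies above the whole bar in both libraries, Peg3 lies high within it, and H19 and Meg3 lie below the tick.

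The levels were then tested with edgeR on the 12 sums, each type against the mean of the other 5, calling a member at more than 2-fold and an adjusted p below 0.05 over 14026 genes. Interstitial cells held most members at higher levels: 9 of the 10 members were higher there, all but Igf2, where 17.3% of all genes were, and none was lower against 5.23% of genes. The largest were Dlk1 (log2 fold change 6.52 ± 0.19 (SE), adjusted p = 1.56e-13) and Meg3 (log2 fold change 5.91 ± 0.30 (SE), adjusted p = 8.86e-11), followed by Grb10 (log2 fold change 4.61 ± 0.28 (SE), adjusted p = 1.63e-09). The median over the members was 3.14, against 0.17 over all genes tested. Peg3 and Nnat, which mesothelial and granulosa cells held at higher levels, lost the call against the summed UMIs of the other types, in which each type weighs by its UMIs (0.48 and -0.04). In that comparison 8 members were higher and 0 lower, against 18.5 and 27.1% of genes. The 8 include Igf2 (1.79), which gained a call there and is subject to the overlap with Gm49394. Grb10 was 3.70 there, below Peg10 at 3.80. Its fold against the mean of the other types includes immune cells, which held 0 Grb10 UMIs. Interstitial Nnat was 1.61 and 0.971 times the carried-over estimate from the highest marker ratio for those cells in replicates 1 and 2.

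Mesothelial and endothelial cells each held 6 members at higher levels, sharing H19, Mest and Grb10. In mesothelial cells these were H19, Meg3, Peg3 (log2 fold change 3.61 ± 0.16 (SE), adjusted p = 7.05e-11), Mest, Grb10 and Nnat (log2 fold change 3.44 ± 0.30 (SE), adjusted p = 1.97e-07), against 13.2% of genes, and Plagl1 was lower (log2 fold change -2.11 ± 0.49 (SE), adjusted p = 0.00449), against 2.7%. In endothelial cells H19, Igf2 (from 7 and 1 UMIs, and subject to the overlap with Gm49394), Peg10, Mest (log2 fold change 3.74 ± 0.21 (SE), adjusted p = 5.84e-10), Plagl1 and Grb10 (log2 fold change 4.72 ± 0.34 (SE), adjusted p = 2.87e-08) were higher, against 12.5% of genes, and Dlk1 (log2 fold change -2.98 ± 0.58 (SE), adjusted p = 9.86e-04) and Peg3 (log2 fold change -3.63 ± 0.41 (SE), adjusted p = 3.70e-06) were lower, against 4.09%. The median over the members was 3.19 in mesothelial and 1.86 in endothelial cells, against 0.13 and 0.02 over all genes. Both patterns depended on the reference. Against the summed UMIs of the other types, mesothelial Meg3 (0.10, adjusted p = 0.822) and Grb10 (0.22) lost their calls and Dlk1 was called lower (-3.40). There 5 members were higher and 2 lower in mesothelial cells, against 8.85 and 13.8% of genes, with a median of 0.96. The 5 include Igf2 (2.31), which gained a call from 5 and 3 UMIs and is subject to the same overlap. In endothelial cells 3 were higher (Mest, Grb10 and Igf2) and 4 lower, against 9.64 and 15% of genes, with a median of 0.19. Mest was 2.52 and Grb10 1.79 in that comparison. The endothelial Grb10 fold of 4.72 has immune cells, at 0 Grb10 UMIs, in its reference. All members called higher in mesothelial or endothelial cells exceeded the median estimate of carried-over RNA for those cells. Mesothelial Meg3, Peg3, Grb10 and Nnat and endothelial Plagl1 lay below the estimate from the highest marker ratio in both libraries. Mesothelial Mest lay below it in replicate 2 (0.856 times). For mesothelial cells that estimate includes Irx3, which did not set them apart from granulosa cells.

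Granulosa cells held 4 members at higher levels, Meg3, Peg3 (log2 fold change 2.98 ± 0.16 (SE), adjusted p = 3.80e-10), Plagl1 (log2 fold change 2.91 ± 0.19 (SE), adjusted p = 3.67e-09) and Nnat (log2 fold change 3.35 ± 0.27 (SE), adjusted p = 3.53e-08), against 17.8% of genes. Dlk1 was lower (log2 fold change -2.28 ± 0.40 (SE), adjusted p = 2.22e-04), against 4.63% of genes. The call of Meg3 depended on the reference: it was 1.99 against the mean of the other types and turned to -1.68 against their summed UMIs, where 3 members were higher and 4 lower, against 19.1 and 25% of genes. The median over the members was 0.77, against 0.21 over all genes, but it turned to -0.50 against the summed UMIs and to -0.22 with immune cells left out of the reference, and was 0.19 in replicate 1 alone.

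In germ cells no member was higher and 7 were lower, against 29.6 and 17.3% of genes, with a median over the members of -3.96 against 0.22 over all genes. Mest (log2 fold change -5.85 ± 0.69 (SE), adjusted p = 1.03e-06) and H19 (log2 fold change -5.93 ± 1.09 (SE), adjusted p = 1.30e-04) were the lowest. Dlk1 did not pass (log2 fold change 0.43 ± 0.28 (SE), adjusted p = 0.198), nor did any member pass as higher by DESeq2, and Peg3 was the least low of the called members (log2 fold change -1.61 ± 0.27 (SE), adjusted p = 4.57e-05). Igf2 and Grb10 gave no usable fit because immune cells, part of the reference, held 0 UMIs of either. With immune cells left out of the reference, a comparison added after the data were seen, no member was higher against 28.4% of genes and 9 were lower against 24.5%, Grb10 among them (-4.42), and Dlk1 did not pass (0.08). Against the summed UMIs of the other types, which include the Dlk1-rich interstitial cells by their UMIs, all 10 were lower, Dlk1 included (-3.94, adjusted p = 3.93e-05), and 0 higher, against 32.7 and 29.3% of genes. The count of lower members was 3 with doubled gate minimums and 4 of 9 tested when each cell was thinned to 2000 UMIs. The share of all genes called was not taken under these settings, so these counts have no background. The median over the members was -2.44 and -3.19 there, against 0.33 and 0.01 over all genes tested.

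In immune cells no member was higher, by edgeR or DESeq2, and 6 were lower (H19, Meg3, Peg3, Mest, Plagl1 and Grb10), against 9.1 and 5.91% of genes. Their 48 cells held 0 to 2 UMIs of each member per library, so these folds carry little precision, and Dlk1, Igf2, Peg10 and Nnat did not pass. Against the summed UMIs of the other types 8 were lower and 0 higher, against 10.5 and 7.59% of genes. The count lower was 3 with Leiden clusters, 2 with doubled gate minimums and 3 of 9 tested after thinning to 2000 UMIs. It was 5 with DESeq2, 7 with the replicate block and 8 without a filter on low counts. The share of all genes called was not taken under these 6 settings. The near absence of the members from immune cells also enters the reference of the other types. With immune cells left out, 4 members were higher and 2 lower in granulosa cells, against 16.6 and 6.32% of genes, and Grb10 turned from 0.91 to -1.34 and was called lower. In interstitial cells 8 were higher and 0 lower, against 16.3 and 7.94% of genes, and Nnat lost its call (0.84). In mesothelial cells 5 were higher and 1 lower, against 12.6 and 3.56% of genes, and Grb10 lost its call (0.62). In endothelial cells 6 were higher and 3 lower, against 12.8 and 8.51% of genes, and Meg3 was called lower (-3.27).

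Single members were also compared within cell types. Dividing cells were those with at least 2 UMIs of 10 cell cycle genes among 2000: 322 and 491 interstitial cells and 153 and 51 granulosa cells. In dividing interstitial cells Nnat was higher (74.6 against 28.0 CPM in replicate 1 and 64.8 against 35.8 CPM in replicate 2, log2 fold change 1.11 ± 0.16 (SE), adjusted p = 0.00690). It was the only member called, where 4.53% of genes were called in either direction. A count of 1 member cannot be told apart from that share. Nnat was higher in both libraries, although replicate 2 alone gave 0.82. Meg3 was at 912 against 1598 CPM in replicate 1 and 1007 against 1742 CPM in replicate 2, a difference that passed the adjusted p but not the 2-fold threshold (log2 fold change -0.80 ± 0.10 (SE), adjusted p = 0.00379).

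In dividing granulosa cells Meg3 was lower (65.9 against 166 CPM in replicate 1 and 74.8 against 182 CPM in replicate 2, log2 fold change -1.32 ± 0.18 (SE), adjusted p = 0.00464). It was the only member called, where 8.38% of genes were called. With 1 of 9 members tested, the count was near that share. Nnat was at 157 against 109 CPM in replicate 1 and 213 against 139.7 CPM in replicate 2 and did not pass (log2 fold change 0.57 ± 0.22 (SE), adjusted p = 0.144). H19 was at 28.9 against 54.0 CPM in replicate 1 and 93.2 against 227 CPM in replicate 2. It did not pass (log2 fold change -1.33 ± 0.72 (SE), adjusted p = 0.282), but passed without a filter on low counts and with the replicate as a block (-1.10, adjusted p = 0.00131). Dividing cells were deeper than the others (median 14854 against 10067 UMIs in granulosa cells of replicate 1), and Meg3 kept its call when each cell was thinned to 2000 UMIs (-1.63).

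Granulosa cells with at least 2 UMIs of Amh or Inhbb among 2000, genes of follicles that have started to grow, numbered 97 and 15. Meg3 was lower in them (48.4 against 159.7 CPM in replicate 1 and 52.8 against 174 CPM in replicate 2, log2 fold change -1.75 ± 0.22 (SE), adjusted p = 0.0150), and so was Mest (48.4 against 119 CPM in replicate 1 and 28.4 against 154 CPM in replicate 2, log2 fold change -1.67 ± 0.28 (SE), adjusted p = 0.0260), where 1.82% of genes were called. Both groups of values were apart in both libraries. Mest lost the call when each cell was thinned to 2000 UMIs (adjusted p = 0.0816). H19 was at 12.9 against 53.2 CPM in replicate 1 and 44.6 against 218 CPM in replicate 2 and did not pass (log2 fold change -2.74 ± 0.82 (SE), adjusted p = 0.141), but passed without a filter on low counts and with the replicate as a block (-2.15, adjusted p = 4.31e-09). Peg3 was at 437 against 329.8 CPM in replicate 1 and 511 against 529 CPM in replicate 2 and did not pass (log2 fold change 0.13 ± 0.25 (SE), adjusted p = 0.845).

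Interstitial cells richer in Mfap5 or Actg2 (18 and 31 cells) were set against those richer in Clec3b or Ogn (148 and 274 cells). Mest was lower (318 against 492 CPM in replicate 1 and 146 against 491 CPM in replicate 2, log2 fold change -1.18 ± 0.26 (SE), adjusted p = 0.0251), where 1.76% of genes were called. This call was lost with DESeq2 (adjusted p = 0.135) and when only library size was used for scaling (adjusted p = 0.0532), and replicate 1 alone gave -0.72. Nnat was at 58.6 against 12.2 CPM in replicate 1 and 87.7 against 41.3 CPM in replicate 2 and passed only with the replicate as a block (adjusted p = 0.0423).

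Germ cells with at least 2 UMIs of Zp3 among 2000 (108 and 133 cells), a gene of the egg coat that rises with oocyte growth, gave no call for the 8 members tested by edgeR, where 0.107% of genes were called, none had an unadjusted p below 0.05, and DESeq2 called 0. Dlk1 was at 35.1 against 46.0 CPM in replicate 1 and 42.4 against 47.1 CPM in replicate 2 and Peg3 at 29.1 against 25.0 CPM in replicate 1 and 30.2 against 33.5 CPM in replicate 2. With the replicate as a block Dlk1 passed the adjusted p but not the 2-fold threshold (-0.26 ± 0.10 (SE), adjusted p = 0.0301), and 2 members had an unadjusted p below 0.05. The share of all genes with such a p was not taken. In replicate 1 alone Grb10 exceeded 2-fold (1.35), with no test.

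**Figure D4:**
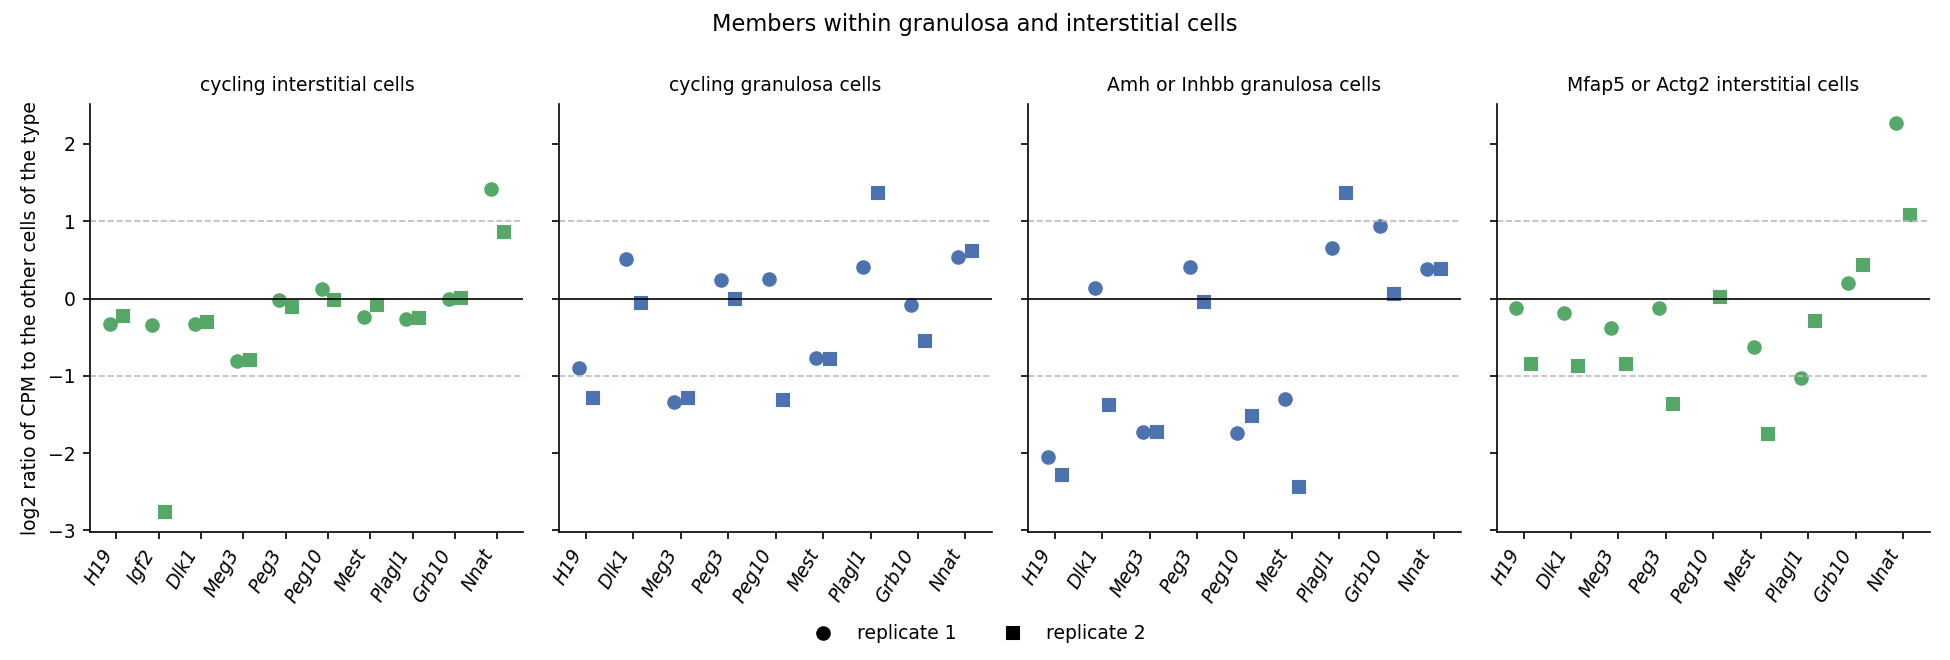
Log2 ratio of CPM between each group of cells and the other cells of its type (for Mfap5 or Actg2 cells, the Clec3b or Ogn cells), for each member tested, with circles for replicate 1 and squares for replicate 2. Dashed lines mark 2-fold, and Peg10 of replicate 1 is missing from the last panel because it was at 0. Nnat is the member furthest up in dividing interstitial cells, and Meg3 lies below 0 in both libraries of all 4 panels.

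Of 50 other imprinted genes listed for comparison, 48 were in the files by symbol and 37 were tested. They were higher in granulosa cells in 16 cases, in interstitial cells in 12, in mesothelial and endothelial cells in 11 each, in germ cells in 6 and in immune cells in 0, where 17.8, 17.3, 13.2, 12.5, 29.6 and 9.1% of all genes were. They were lower in germ cells in 8 cases, in immune cells in 6 and in granulosa cells in 1, where 17.3, 5.91 and 4.63% of all genes were. Against the summed UMIs of the other types, 22 of 40 tested were lower in germ cells, against 32.7% of all genes. In granulosa cells 5 of 41 were lower, against 25%. In endothelial cells 6 of 40 were lower and 5 higher, against 15 and 9.64%. Nap1l5, a nucleosome assembly protein, was at 24.8 and 30.1 CPM in granulosa cells and at no more than 1.05 CPM elsewhere. Zim1, a zinc-finger gene beside Peg3, was at 12.999 and 18.4 CPM in granulosa, 13.7 and 9.51 CPM in interstitial and 16.3 and 22.5 CPM in mesothelial cells. Ndn was at 251 and 263 CPM in interstitial cells, Dio3, the deiodinase encoded beyond Meg3 on the same cluster, at 16.3 and 10.5 CPM in mesothelial cells, and Asb4 at 33.6 and 38.2 CPM in endothelial cells. Kcnq1 was at 16.8 and 15.9 CPM in endothelial and 17.3 and 20.7 CPM in granulosa cells and was called higher in both. Peg12 and Sgce, the neighbour of Peg10, were the lowest in germ cells relative to the other types, at 0 and 0.143 and 0.835 and 1.29 CPM. Immune cells held 0 UMIs of Cdkn1c and of Ndn. Genes were named by the size of the fitted fold, which depends on the prior count where a type is at 0, so levels are given.

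Cells also differed in how many members they held together. At 2000 UMIs per cell, interstitial cells held a mean of 3.76 and 3.35 members in replicates 1 and 2, mesothelial cells 2.95 and 2.55, granulosa cells 1.36 and 1.78, and germ cells 0.174 and 0.209. At least 5 members were found together in 29.3 and 20.4% of interstitial cells. In germ cells 84.5 and 81.2% held none.

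The pattern over the 12 sums (6 types in 2 libraries, which share depth and library within each pool) was compared with that of every tested gene by Pearson's r of log2 CPM, as a description. Among the members, H19 and Mest were most alike (r = 0.96), and Dlk1 was the least like the others (r from 0.04 with Igf2 to 0.54 with Meg3). The genes most like H19 were Tshz2, Mest and Cbx3 (r from 0.96 to 0.97), those most like Dlk1 Syt1, Lgi2 and Adcy5 (r from 0.96 to 0.97), and those most like Meg3 Gas1, Ttc3 and Ccdc80 (r from 0.97 to 0.98). Peg3 was followed most closely by Slc4a3, Rpp25 and Adamts19 (r = 0.99), and Plagl1 by Gpr37, Pla2r1 and Mamld1 (r from 0.95 to 0.96). For Mest they were Myh10, Uhrf2 and A930004D18Rik (r from 0.97 to 0.98), for Grb10 Zfp948, Tm9sf1 and Prrg3 (r from 0.98 to 0.99), for Nnat Rasl11a, Foxp4 and Smarca1 (r = 0.98), for Peg10 Rab13, Rcn3 and Eid1 (r from 0.97 to 0.98) and for Igf2, at few UMIs, Gm15614, Zfp423 and Ywhaq (r from 0.97 to 0.98).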

How the data were processed

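Each library is a droplet 3′ library of polyA RNA from whole P2 ovaries. Per the labels, the authors made the deposited counts with Cell Ranger 3.0.2 on GRCm38. Their values are UMI counts, whole numbers and not normalized. The methods name version 3 of the reagent kit and the labels name version 2. Cells under 500 detected genes or above 10% mitochondrial UMIs were dropped, leaving 3738 and 4464. Doublets were scored with Scrublet (scanpy 1.11.5, expected share 0.05), and the threshold of replicate 1 (0.225) removed 96 and 93 cells; the threshold found for replicate 2 was 0.521. A cell was gated when its gate UMIs reached the minimum (germ 10, granulosa 8, interstitial 10, mesothelial 3, endothelial 2, immune 1) of exactly 1 gate, which took 85.0 and 78.5% of cells. The minimums were set from the gate genes alone. Leiden clusters of the same name held 92.2 to 100% of the gated cells per library, except for immune cells (62.5 and 56.3%). Clusters named germ held 240 and 691 cells, against 207 and 438 gated. Among them, a cluster of 28 and 225 cells had a median of 2463 UMIs. Clusters named mesothelial held 187 and 294 cells, against 76 and 128 gated. UMIs were summed per library and gate and tested with edgeR 4.0.16 (filterByExpr, TMM, glmQLFit and glmQLFTest in R 4.3.3, adjusted p by Benjamini-Hochberg over all genes tested). DESeq2 1.42.0, a replicate block and the other settings of the closing section were alternatives. The SE printed with an edgeR log2 fold change is the absolute fold change divided by the square root of the F statistic. Log2 CPM used a prior count of 2. The fits were tested on simulated data.

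All 10 members are named. Of the other imprinted genes, the 2 called genes with the largest change per cell type are named, and per member the 3 genes with the most similar pattern. The members and all gene lists were chosen with earlier results of these data known. Cell types of a replicate come from the same pups, so replicate numbers pair the samples. Deviations between libraries correlated at 0.020 to 0.274 (median 0.070) over the 15 pairs of types. No such correlation was taken for the groups within a type, which share a pool and a type. The main fits held no term for the replicate. Positions come from GENCODE M21 (GRCm38), in which 30938 of 31057 gene identifiers were found. Intervals and floors (3 counts) cover counting error only.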

Additional observations from a re-analysis of the deposited data

Results flagged for a closer look

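Plagl1 had ratios of opposite sign in dividing cells of interstitial and granulosa type. In dividing interstitial cells its log2 ratio to the other interstitial cells was -0.30 and -0.30 in replicates 1 and 2, and in dividing granulosa cells it was 0.41 and 1.35. The difference of the changes, granulosa minus interstitial, was 1.09 on the log2 scale, and it did not pass an edgeR interaction test, added after the data were seen, over 12566 genes (adjusted p = 0.303). Among the 9 members tested in this way, no other had opposite signs in both libraries of both types.

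Cells that passed both the germ and the granulosa gate, 6 in replicate 1 and 73 in replicate 2, entered no comparison, and over both libraries their UMIs of every member exceeded 3, the most that 0 counts would leave possible. Those of replicate 1 held 0 UMIs of H19, Igf2 and Peg10. Summed over both libraries they held 568 UMIs of Peg3, 174 of Nnat, 155 of Meg3, 146 of Dlk1, 122 of Plagl1, 78 of Mest, 75 of H19, 23 of Grb10, 14 of Peg10 and 5 of Igf2. In replicate 2 Nnat stood at 36.3 raw CPM and Meg3 at 34.2, between their levels in germ and in granulosa cells. Dlk1 stood at 26.4 raw CPM there and at 59.8 in the 6 cells of replicate 1. These cells were as deep as germ cells (median 81069.5 and 62404 UMIs), and whether they are joined cells was not tested.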

How the results depend on the processing

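Of the members' fold changes, 782 alternative values that use both libraries kept their side of the threshold, 44 lost a call, 31 gained one and 7 reversed. Of the 782, 23 changed sign without a call in either setting, among them H19 (-0.75) and Mest (-0.25) in granulosa and Peg10 (-0.12) in mesothelial cells against the summed UMIs. The 7 reversals came from the reference. Against the summed UMIs of the other types, Dlk1 was -3.94 in germ and -3.40 in mesothelial cells, Meg3 -1.68 and Grb10 -1.62 in granulosa cells, Nnat -0.0409 in interstitial cells and Plagl1 -0.41 in endothelial cells. With immune cells left out of the reference Grb10 was -1.34 in granulosa cells. Summing weighs each type by its UMIs. The count of members higher in endothelial cells was 6, and 3 against the summed UMIs. The count higher in germ cells was 0, and 1 against granulosa cells alone. In dividing granulosa cells 1 member was called, and 2 with the replicate block and without a filter on low counts. In Amh or Inhbb granulosa cells 2 were called, and 1 after thinning to 2000 UMIs, where fewer UMIs are counted. In Mfap5 or Actg2 interstitial cells 1 was called, 2 with the replicate block, 0 with DESeq2 and 0 with library size only. The share of all genes called was not taken under these alternatives within a type, so the alternative counts have no background. Beside the added calls named in the report (H19 in dividing and in Amh or Inhbb granulosa cells, Nnat in Mfap5 or Actg2 interstitial cells), the replicate block changed no call but that of Nnat in immune cells (-3.25, adjusted p = 0.0160). A single library allows no test, so members past 2-fold were counted: 1 to 4 in dividing granulosa cells, 4 to 6 in Amh or Inhbb granulosa cells, 2 to 3 in Mfap5 or Actg2 interstitial cells and 0 to 1 in Zp3-carrying germ cells. The share of all genes past 2-fold was not taken in a single library, so these counts have no background. The Leiden clusters, the doubled gate minimum and the thinning to 2000 UMIs lost 9, 13 and 11 calls of single members. The highest marker ratio raised the carried-over share of Dlk1 in germ cells from 8.76 to 20.2%, and that of Peg3 from 12.49 to 141%. Thinning moved 56 of the 60 shares of cells with a UMI, by construction. Immune cells are too few to show a low level of any member.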

Other observations

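Cells that reached no gate, 429 and 680 with a median of 7108 and 3383.5 UMIs, held the members at levels between those of the gated somatic types. H19 was at 255 and 431 raw CPM in replicates 1 and 2, Meg3 at 271 and 303, Peg3 at 326 and 414, Mest at 252 and 272 and Dlk1 at 55.7 and 148. Cells past several gates other than germ and granulosa together, 112 and 187, were at 601 and 380 raw CPM of H19 and 568 and 508 of Peg3.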
